A study of Mus musculus with 201 samples.

Results

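The cells compared here are individual dentate granule cells (DGCs), the principal neurons of the dentate gyrus of the hippocampus, taken from mice after a seizure-inducing drug and divided by their level of *Fos* mRNA. Members were chosen by that measured value. Among cells from mice given pentylenetetrazole (PTZ) with a total expected count over 50000, a cell was called Fos-high at a *Fos* level above 100 TPM, a read level scaled by gene length and to the same total in every cell, and Fos-low at 100 TPM or less. This gave 14 Fos-high and 16 Fos-low cells, of 35 PTZ cells and 201 samples in all. The Fos-high cells nearest to the limit had 424 and 809.5 TPM of *Fos* and the Fos-low cells nearest to it had 75.4 and 12.6 TPM. Because *Fos* set the groups, it is left out of the results.

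Both groups came from the same preparation. PTZ, an antagonist of GABA-A receptors, was injected at 50 mg per kg into Prox1-GFP mice, which carry green fluorescent protein under the control of the *Prox1* promoter, and the mice were killed 1 h later. Hippocampal tissue of 2 mice was pooled for the treatment, although the series text mentions 1 mouse, and the age of these mice was not given in the sources used here. The tissue was dissociated with protease, GFP+ cells were sorted, and each cell was amplified by Smart-seq2, which copies full-length mRNA without molecular identifiers. A further 38 cells over the same total, of 47 from Prox1-GFP mice given saline, were divided by the same limit into 21 Fos-high and 17 Fos-low cells. PTZ and saline cells carry different suffixes in their labels, so that a difference in handling and the treatment cannot be told apart. No label names the animal of a cell, so each group counts as 1 sample. No test was therefore run, an SD describes the spread over cells, and cells are named by a number given in accession order (PTZ cell 1 to PTZ cell 35).

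*Fos* belongs to the immediate early genes, which neurons transcribe within minutes of strong synaptic input from promoters that already-present factors such as CREB and SRF can switch on without new protein. Many of the first products are themselves transcription factors, among them the AP-1 proteins of the FOS and JUN families, the EGR zinc fingers and the NR4A orphan nuclear receptors. Others act at the synapse, such as ARC, or shut down the kinase signalling that induced them, such as the DUSP phosphatases.

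Depth overlapped between the groups. Total counts ranged from 289553 to 5129240 in Fos-high cells, with a median of 1632700, and from 67212 to 2635262 in Fos-low cells, with a median of 900749. A gene was counted as detected in a cell at a TPM above 1, and a Fos-high cell held 6925 ± 2879 detected genes (SD, n = 14 cells) against 5551 ± 1117 in a Fos-low cell (SD, n = 16 cells).

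Several Fos-high cells stood apart from the rest, and the sets that follow were defined after their values had been seen. PTZ cells 11, 15, 16 and 28 each held over 10000 detected genes, from 10244 to 12220, whereas the other 10 Fos-high cells held 3902 to 6434 and the Fos-low cells 3314 to 7437. Across 11498 genes these gene-rich cells correlated with one another at 0.724 to 0.804 (Pearson's r of log2(TPM + 1)), and the other PTZ cells at 0.130 to 0.577. Between gene-rich and other PTZ cells the values were 0.262 to 0.664. Their median of 0.482 was above the median of 0.344 among the other cells, so the correlations do not set the gene-rich cells apart from the rest. PTZ cells 13, 25, 27, 31 and 35 each carried over 10 TPM of *Dcx*, which encodes the microtubule protein doublecortin of immature neurons, together with over 100 TPM of *Igfbpl1*. PTZ cell 22 carried 833 TPM of the astrocyte filament gene *Gfap*, which was at 0 in the other 29 PTZ cells. The remaining Fos-high cells were PTZ cells 3, 5, 29 and 33. No Fos-low cell met any of these limits (0 of 16). For the PTZ cells alone, the counts of inducible genes detected and of genes past the limit are given below with and without these cells.

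The label of a dentate granule cell was held against the genes of that cell. *Prox1*, the transcription factor that defines the DGC fate and drives the reporter, was detected in 14 of 14 Fos-high cells, where its lowest, median and highest levels were 89.4, 436 and 2008 TPM. It was also detected in 16 of 16 Fos-low cells, at 3.56, 155 and 400.5 TPM. The difference in mean log2(TPM + 1) was 1.88, and 0.48 without the gene-rich and the *Dcx* and *Igfbpl1* cells. *Rbfox3*, which encodes the neuronal splicing factor NeuN, was detected in 12 of 14 and 15 of 16 cells, and its medians of 218 and 263 TPM lay close together. Cell 22 went against its label. It held 95.7 TPM of *Prox1* but 2588 TPM of *Slc1a3* and 710.0 TPM of *Slc1a2*, both glutamate transporters of astrocytes, and 8159 TPM of *Aldoc*, while *Rbfox3*, *Snap25*, *Syp* and *Slc17a7* were at 0.

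Inducible genes were compared through 6 lists holding 70 genes, *Fos* excluded. A Fos-high cell held 37.6 ± 16.4 detected inducible genes (SD, n = 14 cells; range 13 to 61), and a Fos-low cell held 17.7 ± 5.42 (SD, n = 16 cells; range 9 to 27), a difference of 19.9. The ranges overlapped, since PTZ cells 31, 3, 22 and 35 held 13 to 24. After each cell was thinned to 50000 counts the means were 32.9 and 14.8, and without the gene-rich cells they were 29.5 and 17.7. The Fos-high mean was 44.8 without the *Dcx* and *Igfbpl1* cells and 47.4 without these and PTZ cell 22. It was 34.4 without both the gene-rich and the *Dcx* and *Igfbpl1* cells. The shares that follow are of all cells. As a share of all genes detected in the cell, inducible genes made up 0.544% ± 0.128 in Fos-high cells and 0.319% ± 0.0819 in Fos-low cells. Their summed counts took 0.366% to 7.47% of a Fos-high cell's total, with a median of 1.01%, and 0.0856% to 0.526% of a Fos-low cell's total, with a median of 0.242%.

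**Figure D1:**
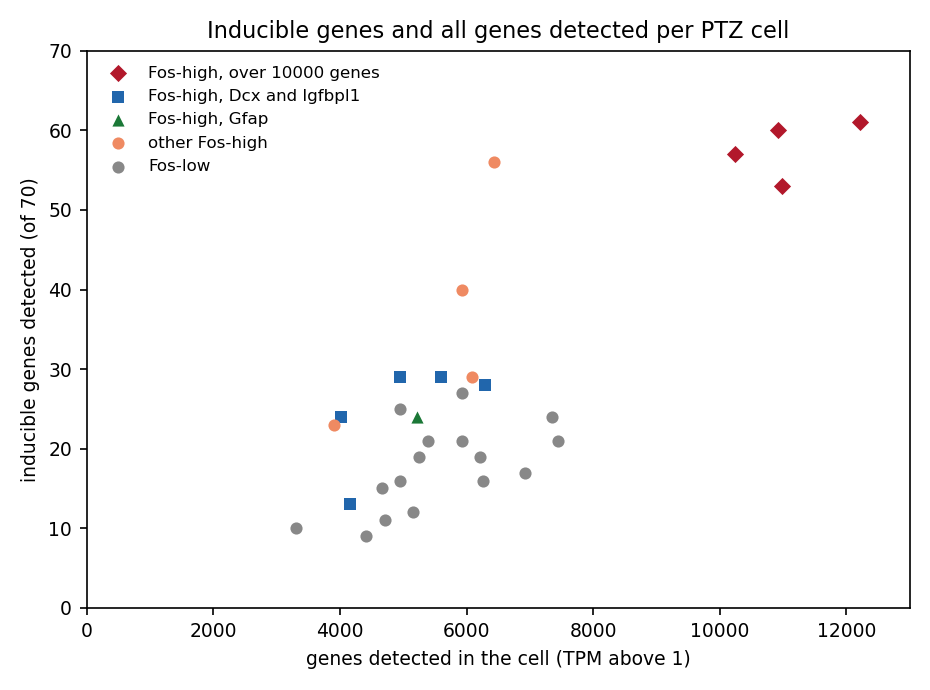
Number of the 70 inducible genes detected (TPM above 1, vertical axis) against all genes detected in the same cell (horizontal axis); each point is 1 PTZ cell, marked by group and set. Fos-high cells spread from 13 to 61 inducible genes and Fos-low cells from 9 to 27, and the gene-rich cells, with more than 10000 detected genes, sit at 53 to 61.

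Genes were compared between the groups when they were detected in at least 5 of the 30 cells. With no test, a gene was called past the size limit when mean log2(TPM + 1) differed by 3 or more and the share of cells detecting it differed by at least 40 percentage points in the same direction. Of 58 inducible genes compared, 15 were past the limit and higher in Fos-high cells and 0 were lower. Over all 11498 genes compared, 184 (1.6%) were past it and higher and 20 (0.174%) were lower. The median difference of the 58 inducible genes was 2.17 on the log2(TPM + 1) scale and 52 of them were above 0, beside a median of 0.38 over all genes, of which 62.1% were above 0. The remaining 12 inducible genes were detected in fewer than 5 cells and were not compared. Because the rule used expression in these same cells, these counts are a description.

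Of the AP-1 genes, which encode the dimer partners of FOS, *Fosb* and *Jund* were past the limit. *Fosb* (chr7:19302696-19310051, minus strand, GRCm38) was detected in 12 of 14 Fos-high cells (85.7%, exact 95% interval 57.2 to 98.2%) and 1 of 16 Fos-low cells (6.25%, 0.158 to 30.2%). Its lowest, median and highest levels were 0, 82.6 and 1019 TPM in Fos-high cells and 0, 0 and 4.27 TPM in Fos-low cells. Each of the 12 Fos-high cells that detected it lay above every Fos-low cell, and mean log2(TPM + 1) was 6.01 ± 3.14 against 0.28 ± 0.63 (SD over cells), a difference of 5.74. *Junb* (chr8:84974484-84978718, minus strand) had 0, 1007 and 6622 TPM in Fos-high cells and 0, 1.43 and 211 TPM in Fos-low cells. The difference of 5.90 was as large as that of *Fosb*, but 10 of 16 Fos-low cells also detected *Junb*, so that the shares of 92.9% and 62.5% were too close for the limit. *Jun* showed the same form, at 0.77, 493 and 3491 TPM in Fos-high cells and 0, 48.2 and 187 TPM in Fos-low cells, with a difference of 3.75 and detection in 13 of 14 and 11 of 16 cells. *Jund* was at 0, 22.2 and 90.7 TPM in Fos-high cells and at 0, 0 and 24.6 TPM in Fos-low cells, with a difference of 3.06. The last FOS relatives did not follow. *Fosl2* differed by -0.18, its sign varied with the setting, and *Fosl1* was detected in 2 Fos-high and 0 Fos-low cells and was not compared.

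**Figure D2:**
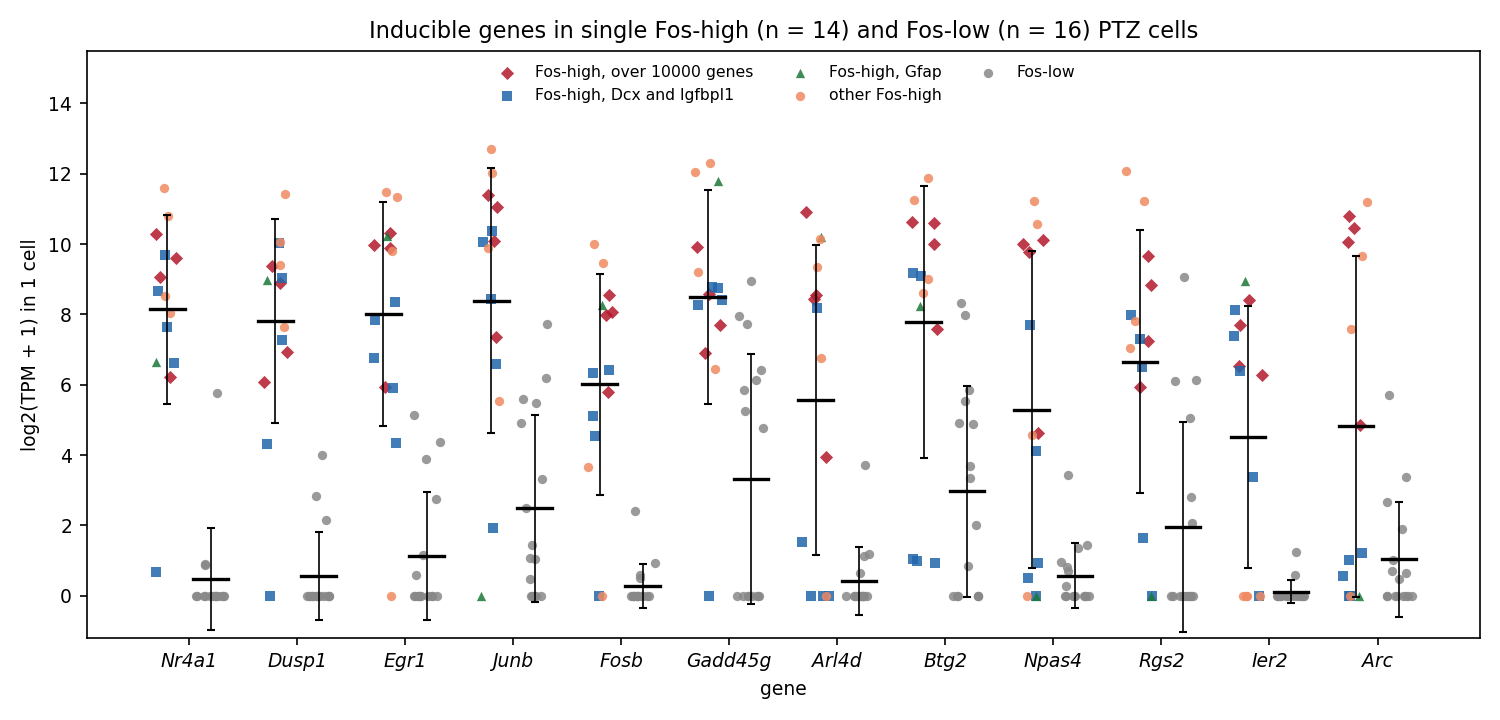
Level of 12 inducible genes in each PTZ cell, as log2(TPM + 1), with the 14 Fos-high cells at the left and the 16 Fos-low cells at the right of each gene; symbols mark the sets of Fos-high cells, and bars give the mean ± SD over cells. For *Nr4a1* and *Dusp1* 13 Fos-high cells lie above every Fos-low cell, whereas for *Gadd45g* 5 do.

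Of the EGR genes, which encode zinc finger factors, and the NAB genes, which encode their corepressors, *Egr1* alone was past the limit. *Egr1* was detected in 13 of 14 Fos-high cells (92.9%, exact 95% interval 66.1 to 99.8%) and in 5 of 16 Fos-low cells (31.3%, 11.02 to 58.7%). Its levels were 0, 612 and 2871 TPM in Fos-high cells and 0, 0 and 34.4 TPM in Fos-low cells. In 12 Fos-high cells it exceeded every Fos-low cell, PTZ cell 3 was at 0, and the difference was 6.90. *Egr2* was found in fewer cells, 6 of 14 against 3 of 16, and reached 1139 and 77.2 TPM, with a difference of 2.30. *Egr4* differed by 3.18, with detection in 7 and 2 cells, and missed the limit on shares. *Egr3* differed by 0.97 and its sign turned to -0.12 without the gene-rich cells. *Nab2* differed by 1.65, and *Nab1* was detected in 3 Fos-high and 1 Fos-low cells and was not compared.

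Members of the NR4A family, nuclear receptors that are active without a ligand, gave the largest single difference of all genes compared. *Nr4a1* (chr15:101254269-101274795, plus strand, GRCm38) was at 0.60, 383 and 3118 TPM in Fos-high cells and at 0, 0 and 53.1 TPM in Fos-low cells. It was detected in 13 of 14 Fos-high cells and 1 of 16 Fos-low cells, those 13 lay above every Fos-low cell, and the difference was 7.67. Summed over cells, *Nr4a1* stood at 1097 CPM (counts scaled to the total) in Fos-high cells (exact Poisson 95% interval 1084 to 1110) and 0.588 CPM in Fos-low cells (0.269 to 1.12), intervals that cover counting error only. The Fos-high cell with the most *Nr4a1* held 24.9% of those counts. *Nr4a3* was at 0, 79.1 and 442 TPM against 0, 0 and 99.1 TPM, was also past the limit, and differed by 4.23. *Nr4a2* differed by 2.77, with detection in 10 and 4 cells.

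The list of other inducible transcriptional regulators held 18 compared genes, of which 4 were past the limit, 17 were above 0 and the median difference was 2.03. *Gadd45g*, a stress-inducible gene linked to DNA demethylation, was at 0, 407 and 5070.4 TPM in Fos-high cells and at 0, 13.02 and 498 TPM in Fos-low cells. The groups overlapped, since 5 Fos-high cells lay above the highest Fos-low cell, and the difference was 5.19. *Npas4*, a factor induced by calcium entry in neurons, was at 0, 23.2 and 2395 TPM in Fos-high cells and at 0, 0 and 9.79 TPM in Fos-low cells, a difference of 4.73. Its 9 detecting Fos-high cells lay above every Fos-low cell, and 5 Fos-high cells lay within the range of the Fos-low cells. *Ier2* was detected in 9 of 14 and 1 of 16 cells and differed by 4.40, or 1.68 without both the gene-rich and the *Dcx* and *Igfbpl1* cells. *Btg2*, an antiproliferative cofactor, differed by 4.83 but missed the limit on shares, being detected in 12 of 14 and 9 of 16 cells.

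The list of inducible phosphatases, kinases and signalling feedback genes had 5 of 13 compared genes past the limit, and 13 of 13 were above 0 with a median of 2.70. That was the largest count of the 6 lists but not the largest share, since the NR4A list had 2 of 3 and the AP-1 list 2 of 5. *Dusp1*, which encodes a phosphatase of MAP kinases, was at 0, 492 and 2728 TPM in Fos-high cells and at 0, 0 and 14.9 TPM in Fos-low cells. It was detected in 13 of 14 and 3 of 16 cells, those 13 lay above every Fos-low cell, and the difference was 7.26. *Dusp6*, which encodes a phosphatase selective for ERK, differed by 4.34, with 0, 112 and 1143 TPM against 0, 0 and 28.1 TPM. *Rgs2*, which encodes a brake on G protein signalling, differed by 4.71, though 1 Fos-low cell reached 531 TPM and only 3 Fos-high cells exceeded that cell. *Ppp1r15a*, which encodes a regulator of eIF2α dephosphorylation, differed by 3.85, and *Dusp4* was the fifth gene of the list past the limit.

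The promoters of inducible genes with large differences are shown with the letters that match an element bound by CREB. The windows are the 250 bases before the RefSeq start in GRCm38.p6, written 5′ to 3′ along the gene. They are given for the 4 inducible genes with the largest difference among those with a sequence available. *Egr1*, whose difference was larger than those of *Junb* and *Fosb*, had no sequence and is not shown. Capitals mark a cAMP response element (CRE, TGACGTCA) or its core (TGACG or CGTCA), searched on both strands. The windows are chr15:101266596-101266845 (plus strand) for *Nr4a1*, chr17:26508473-26508722 (minus strand) for *Dusp1*, chr8:84978749-84978998 (minus strand) for *Junb* and chr7:19310046-19310295 (minus strand) for *Fosb*.
Nr4a1: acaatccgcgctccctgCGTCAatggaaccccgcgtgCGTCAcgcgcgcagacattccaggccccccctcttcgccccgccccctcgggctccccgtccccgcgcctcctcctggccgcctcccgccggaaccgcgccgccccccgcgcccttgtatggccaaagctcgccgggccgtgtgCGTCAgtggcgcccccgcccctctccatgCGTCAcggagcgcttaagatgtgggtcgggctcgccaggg
Dusp1: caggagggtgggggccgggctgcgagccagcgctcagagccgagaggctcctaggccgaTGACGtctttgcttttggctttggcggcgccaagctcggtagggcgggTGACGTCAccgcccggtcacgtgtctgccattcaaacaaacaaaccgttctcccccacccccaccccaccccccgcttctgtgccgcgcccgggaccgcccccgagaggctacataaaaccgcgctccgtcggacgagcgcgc
Junb: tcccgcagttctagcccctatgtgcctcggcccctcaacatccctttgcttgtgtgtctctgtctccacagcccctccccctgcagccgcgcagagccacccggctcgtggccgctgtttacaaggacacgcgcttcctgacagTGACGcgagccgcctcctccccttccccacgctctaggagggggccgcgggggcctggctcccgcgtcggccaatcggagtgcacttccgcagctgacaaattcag
Fosb: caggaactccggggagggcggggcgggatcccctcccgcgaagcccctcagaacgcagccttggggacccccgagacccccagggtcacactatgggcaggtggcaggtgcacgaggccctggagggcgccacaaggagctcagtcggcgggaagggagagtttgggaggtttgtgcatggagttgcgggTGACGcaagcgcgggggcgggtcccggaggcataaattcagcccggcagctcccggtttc
Cores began 233, 213, 69 and 40 bases before the start of *Nr4a1*, a full CRE and a separate core lay 143 and 191 bases before that of *Dusp1*, and single cores lay 106 and 60 bases before those of *Junb* and *Fosb*.

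Windows from 250 bases before to 50 after the start were found for 12 of the 15 inducible genes past the limit. *Egr1*, *Ier2* and *Dusp4* had no window, so nothing is said here of their sites. A CRE was present in 3 of these 12 (25%), those of *Ppp1r15a*, *Arl4d* and *Dusp1*, in 3.99% of the 8140 compared genes with a window and in 2.03% of all 27025 genes. A core, which is also part of every CRE, was present in 9 of the 12 (75%), 37.3% of compared genes and 23.0% of all genes. Of 31 inducible genes not past the limit, 16.1% had a CRE and 58.1% a core, and of 130 other genes past the limit and higher 5.38% had a CRE and 44.6% a core. Neither an AP-1 site (TGANTCA) nor a CArG box was found in the 12, and they were present in 5.29% and 1.43% of compared genes. These matches are a description of letters in a window and were not tied to binding in these cells.

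Effectors, whose products act at synapses, in secretion or in trafficking, had the smallest median difference of the 6 inducible lists. Of 14 compared, 1 was past the limit, 10 were above 0, and the median was 0.75. *Arl4d*, a small GTPase gene, was that gene, at 0, 199 and 1916 TPM in Fos-high cells and 0, 0 and 12.3 TPM in Fos-low cells, with a difference of 5.15. *Arc* (chr15:74669083-74672570, minus strand, GRCm38), whose protein controls AMPA receptor endocytosis, was at 0, 14.6 and 2337 TPM in Fos-high cells and at 0, 0.20 and 51.2 TPM in Fos-low cells. It differed by 3.79 and missed the limit on shares, with detection in 9 of 14 (64.3%, exact 95% interval 35.1 to 87.2%) and 5 of 16 cells. *Pcdh8* and *Rasgrp1* differed by 1.88 and 1.80. Members with a negative difference were the secretory genes *Scg2* (-1.18) and *Syt4* (-1.59), the neurotrophin gene *Bdnf* (-1.13) and *Lingo1* (-0.60), and *Bdnf* was detected in 10 of 14 Fos-high and 14 of 16 Fos-low cells. *Fosl2* and *Bhlhe40* (-0.64) were the other inducible genes below 0.

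PTZ cell 20, the Fos-low cell nearest to the *Fos* limit and with a total of 71231 counts, held the highest Fos-low levels of *Nr4a1* (53.1 TPM), *Egr1* (34.4 TPM), *Egr2* (77.2 TPM) and *Arc* (51.2 TPM). It also detected the most inducible genes of the Fos-low cells, 27.

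Fos-high cells were not alike in the inducible genes they carried. *Arc* was at 2337, 812 and 192 TPM in PTZ cells 29, 33 and 5, and at 1406, 1790, 1067 and 27.9 TPM in the gene-rich cells 11, 15, 16 and 28. In the *Dcx* and *Igfbpl1* cells it was at 0 to 1.32 TPM, and in PTZ cells 3 and 22 it was at 0. *Egr2* was at 14.01 to 325 TPM in the gene-rich cells and at 0 in the 5 *Dcx* and *Igfbpl1* cells. *Npas4* was at 23.6 to 1119 TPM in the gene-rich cells and, in the 5 *Dcx* and *Igfbpl1* cells, at 206 TPM in PTZ cell 27, 16.4 TPM in PTZ cell 25 and below 1 TPM in the other 3. *Egr1* (19.4 to 328 TPM) and *Junb* (2.76 to 1328 TPM) were detected in 5 of these 5 cells, and *Nr4a1*, *Fosb* and *Dusp1* in 4 of 5. Cell 22, with astrocyte genes, carried 1200.2 TPM of *Egr1*, 3561 TPM of *Gadd45g*, 505.0 TPM of *Dusp1* and 306 TPM of *Fosb*, and had *Junb*, *Arc*, *Npas4*, *Egr2* and *Rgs2* at 0.

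**Figure D3:**
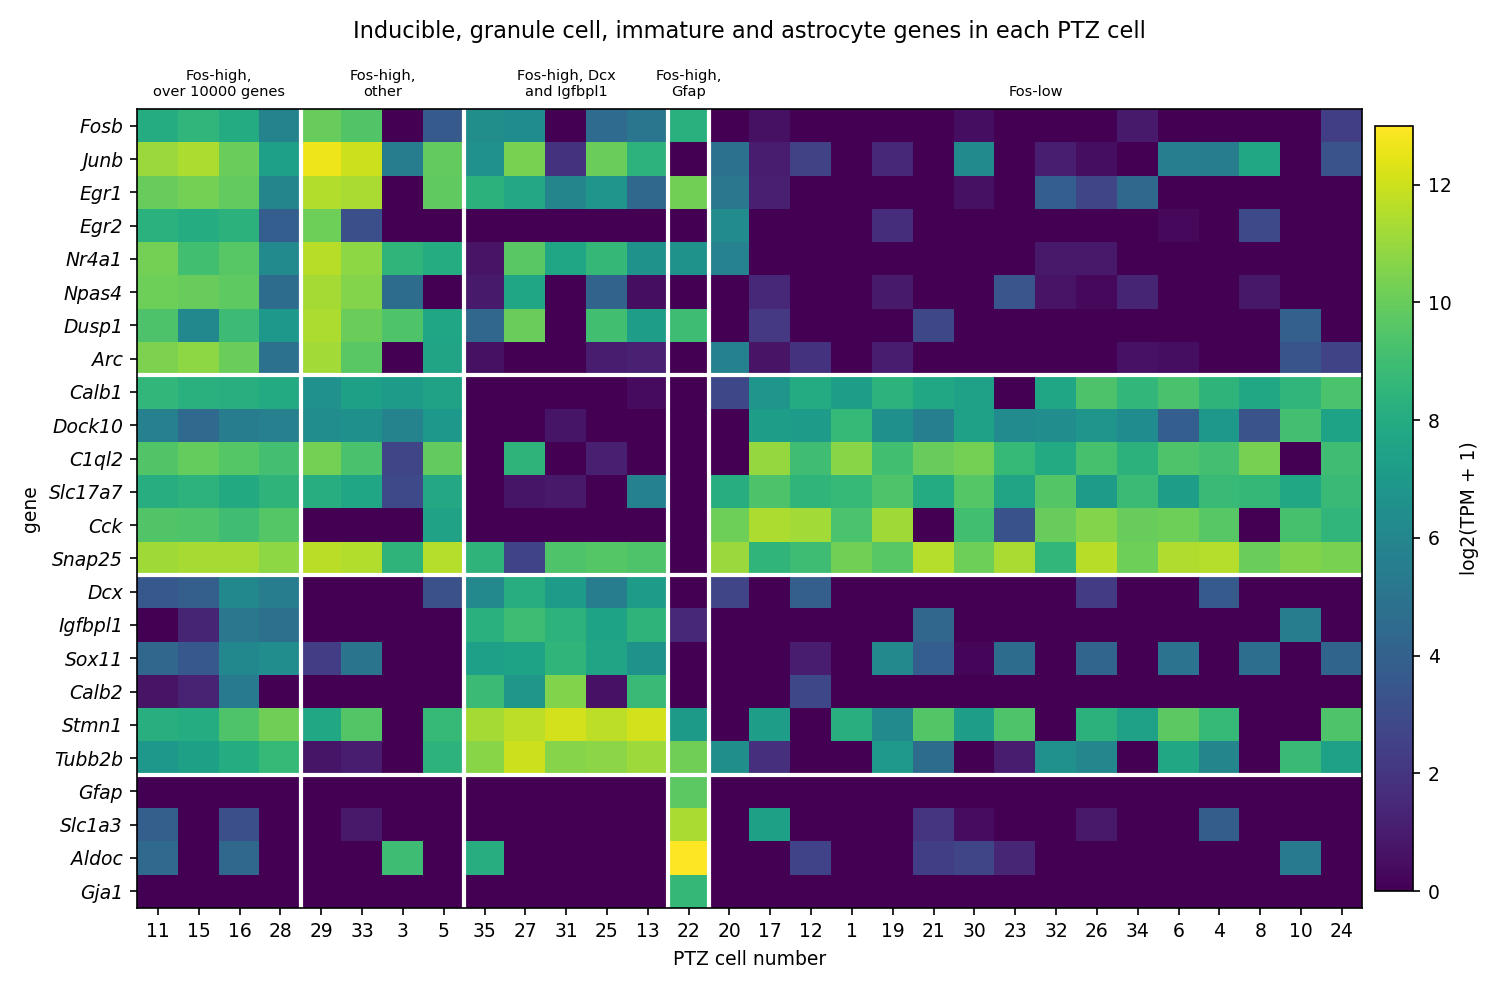
Heat map of log2(TPM + 1), from dark at 0 to yellow at the highest levels, for inducible, mature, immature and astrocyte genes (rows) in each of the 30 PTZ cells (columns, by cell number and set). *Arc* and *Egr2* are dark in the 5 *Dcx* and *Igfbpl1* cells, in which *Calb1*, *Dock10* and *Cck* are dark too, and *Gfap* is bright in PTZ cell 22 alone.

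Both sets of cells moved the sizes. Without the 5 *Dcx* and *Igfbpl1* cells and PTZ cell 22, 8 Fos-high cells remained and 29 of 56 inducible genes were past the limit (51.8%; 3.63% of all genes), 14 of them among the 15 above. In those 8 cells the difference was 7.05 for *Arc*, 7.05 for *Npas4*, 4.55 for *Egr2* and 8.79 for *Nr4a1*. The count was 25 of 57 without the *Dcx* and *Igfbpl1* cells alone (2.85% of all genes), 17 without PTZ cell 22 alone (1.81%), and 17 of 41 without both the gene-rich and the *Dcx* and *Igfbpl1* cells (2.24%). Without the gene-rich cells, 13 of 45 inducible genes were past the limit (28.9%; 1.33% of all genes), and the differences of *Arc*, *Npas4* and *Egr2* were 2.09, 3.40 and 0.63, whereas those of *Nr4a1*, *Dusp1* and *Egr1* were 7.41, 7.26 and 6.49. The median of the EGR list moved from 2.30 to 1.31 without the gene-rich cells, and that of the NR4A list from 4.23 to 3.92.

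Outside the lists, the 3 genes with the largest positive differences had higher medians in the *Dcx* and *Igfbpl1* cells than in the gene-rich cells. The uncharacterised gene *6330403K07Rik* was at 64.5, 387 and 1616 TPM in Fos-high cells and at 0, 0 and 334 TPM in Fos-low cells, and differed by 6.18. *Dynlt1b*, which encodes a dynein light chain, was detected in 11 of 14 and 0 of 16 cells and differed by 5.78, or 3.52 without the gene-rich and the *Dcx* and *Igfbpl1* cells. It belongs to a family of near-identical copies, between which reads may have been divided. *Eef1e1*, which encodes a subunit of the tRNA synthetase complex, was at 28.95, 137 and 409 TPM against 0, 0 and 258 TPM, was detected in 14 of 14 and 4 of 16 cells, and differed by 5.75. In the *Dcx* and *Igfbpl1* cells these genes had medians of 744, 715 and 229 TPM, and in the gene-rich cells 187, 27.1 and 64.5 TPM.

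Among the 20 genes past the limit and lower in Fos-high cells was *Cck*, the cholecystokinin gene, with the largest negative difference (-5.13). It was at 0, 0 and 774 TPM in Fos-high cells and at 0, 898 and 2699 TPM in Fos-low cells, with detection in 5 of 14 and 14 of 16 cells. The gene-rich cells were 4 of those 5, at 516 to 774 TPM, and the 5 *Dcx* and *Igfbpl1* cells were at 0. *Rasgrf1*, which encodes a Ras exchange factor gated by calcium, was at 0, 248 and 849 TPM in Fos-high cells and at 214, 802 and 1755 TPM in Fos-low cells, and differed by -4.15. *Fam19a1*, *Ahcyl2*, *Slc4a10* and *Nebl* differed by -4.68, -4.22, -4.06 and -3.99. *Grin2a*, which encodes an NMDA receptor subunit, differed by -3.18, and *Gria3* and *Gabrb2* for other receptor subunits were also among the 20.

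The lower genes varied with the Fos-high cells included. Without the *Dcx* and *Igfbpl1* cells and PTZ cell 22, 6 cells in all, 0 genes were past the limit and lower, the difference of *Rasgrf1* was -0.40 and that of *Cck* was -2.72. Without the 5 *Dcx* and *Igfbpl1* cells alone the count was also 0, and without PTZ cell 22 alone it was 10 (0.0877% of genes compared), of which 7 were among the 20. Without the gene-rich cells it was 208 (2.11% of genes compared), 20 of the 20 among them, and the median over all genes was -0.16. Without both the gene-rich and the *Dcx* and *Igfbpl1* cells it was 174 (1.93%), 13 of the 20 among them, and *Rasgrf1* and *Cck* differed by -2.61 and -6.85. The count of lower genes was thus 0 only in settings that kept the gene-rich cells. In the *Dcx* and *Igfbpl1* cells *Rasgrf1*, *Fam19a1*, *Ahcyl2*, *Slc4a10*, *Nebl* and *Grin2a* were each detected in 0 of 5 cells.

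Maturity genes moved with the same cells. In the immature neuron list 10 of 10 compared genes had a positive difference, 2 were past the limit (*Dcx*, 3.23, and *Igfbpl1*, 3.27, which also defined the cells), and the median was 3.06. *Tubb2b*, a tubulin of growing neurites, differed by 3.65, and *Stmn1*, which encodes the microtubule destabiliser stathmin, by 3.41. *Stmn1* was at 2439 to 4390.0 TPM in the *Dcx* and *Igfbpl1* cells, above the highest Fos-low cell at 831 TPM. *Sox11*, a factor of newborn neurons, was at 97.7 to 366 TPM in the 5 cells, and *Calb2*, the calretinin gene of young DGCs, was detected in 4 of 5. The immature list's median was 1.18 without these 5 cells and PTZ cell 22, and -0.02 without both the gene-rich and these 5 cells, with 3 of 6 compared genes above 0.

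Genes of mature DGCs took the other direction in the same cells. *Calb1*, the calbindin gene, was at 0, 118 and 384 TPM in Fos-high cells and at 0, 242 and 668 TPM in Fos-low cells, and differed by -2.92. It was at 1 TPM or less in 5 of 5 *Dcx* and *Igfbpl1* cells and in 1 of 16 Fos-low cells, and without those 5 cells and PTZ cell 22 its difference was 0.35. *Slc17a7*, which encodes the vesicular glutamate transporter VGLUT1, differed by -3.75, or -1.10 without the 6 cells, and *Dock10* by -2.79. The granule list had 16 genes compared with a median of -0.49, which became 0.25 without the 6 cells, and the neuron list 12 genes with a median of -1.52, which became 0.38. Without both the gene-rich and the *Dcx* and *Igfbpl1* cells these medians were -1.16 and -1.72, with 11 of 16 granule genes and 11 of 11 neuron genes below 0. With all cells, neither list had a gene past the limit. *Prox1*, by contrast, was at 743 to 2008 TPM in the *Dcx* and *Igfbpl1* cells, above the highest Fos-low cell at 400.5 TPM.

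**Figure D4:**
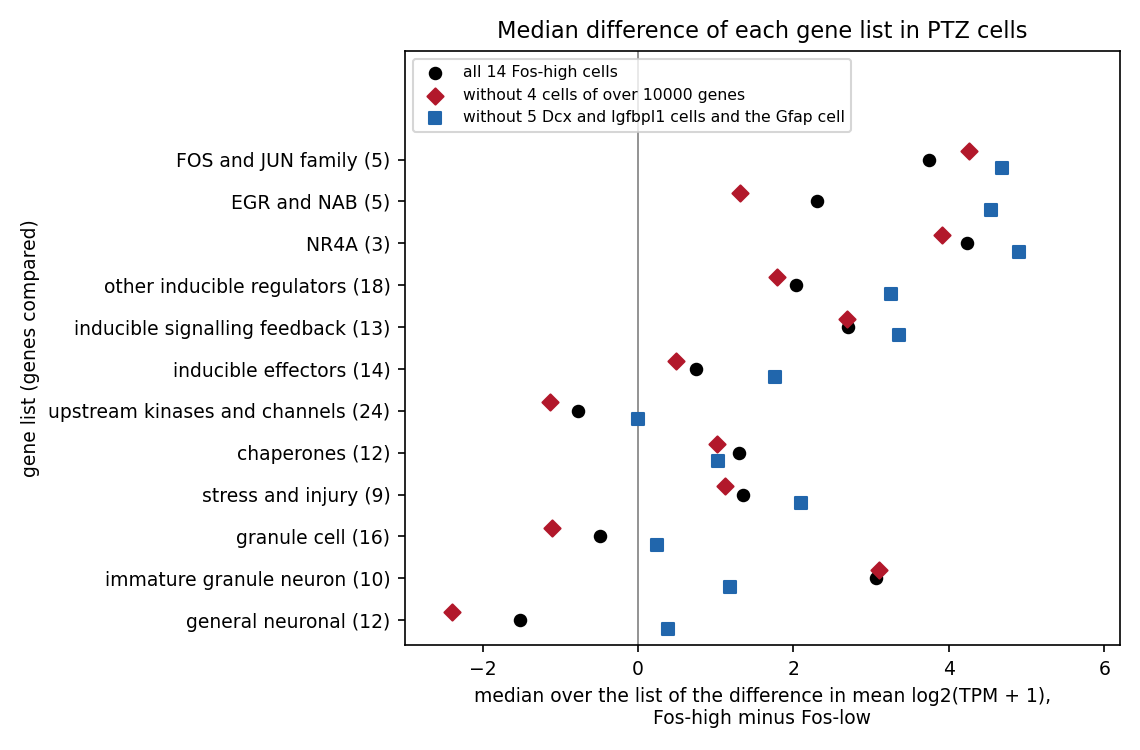
Median difference in mean log2(TPM + 1), Fos-high minus Fos-low PTZ cells, for each gene list (genes compared in brackets), with all 14 Fos-high cells (circles), without the gene-rich cells (diamonds) and without the *Dcx* and *Igfbpl1* cells and the *Gfap* cell (squares). The inducible lists stay above 0 in each setting drawn, while the granule and neuron lists lie below 0 with all cells (-0.49 and -1.52) and above 0 without the *Dcx* and *Igfbpl1* cells and the *Gfap* cell (0.25 and 0.38).

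The upstream list, the receptors, channels and kinases that carry activity to immediate early promoters, held 24 compared genes with a median of -0.77. *Grin2a* was its only gene past the limit, and *Cacna1c*, which encodes an L-type calcium channel, differed by -2.38. The upstream median was 0.00 without the 6 cells and -1.13 without the gene-rich cells. Without both the gene-rich and the *Dcx* and *Igfbpl1* cells it was -0.77, as with all cells. Lists of genes that dissociation and injury can induce also had positive medians. The chaperone list had a median of 1.29 over 12 genes, 11 of them above 0, led by *Dnajb1* (2.28) and *Dnaja1* (2.13). The injury list had a median of 1.35 over 9 genes, 8 of them above 0, with *Atf4*, a factor of the integrated stress response, at 3.09 and *Trp53* at 2.73. No gene of either list was past the limit, beside 1.6% of all genes past it and higher, so few were to be found in lists this short. Without both the gene-rich and the *Dcx* and *Igfbpl1* cells the chaperone and injury medians were 0.75 and 0.45. Without the 6 cells 1 of 7 compared injury genes was past the limit and higher, beside 3.63% of all genes. In saline cells 1 of 12 chaperone genes and 1 of 8 injury genes were past it and higher, beside 0.437% of all genes. Single genes in lists this short are not read as a result about the lists. The part of these lists in the difference of the inducible genes was not tested.

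Markers of other cells were followed in the same way. Of 12 interneuron markers, *Slc32a1*, *Sst*, *Pvalb*, *Vip*, *Npy* and *Lhx6* were at 0 in every Fos-high and Fos-low cell. *Gad1*, which encodes a GABA-synthesising enzyme, was detected in 10 of 14 and 11 of 16 cells, with medians of 135 and 122 TPM, and differed by 0.12. *Adarb2* differed by -1.64 and *Cck* is a member of that list, whose summed level was 0.61 to 965 TPM in Fos-high and 0 to 2705 TPM in Fos-low cells. Oligodendrocyte markers summed to 0 to 234 and 0 to 163 TPM, with 5 and 8 of 11 at 0 in every cell of the group, and *Mbp* (0.91) was the 1 gene compared. Astrocyte markers summed to 20.8 to 12939 TPM in Fos-high cells, the highest in PTZ cell 22, and to 2.84 to 442 TPM in Fos-low cells. Of 10 astrocyte markers, *Aqp4* and *S100b* were at 0 in every Fos-high cell and *Gfap*, *Aqp4*, *Gja1*, *S100b* and *Aldh1l1* in every Fos-low cell, and *Slc1a2* and *Aldoc* differed by 2.20 and 1.87. Without PTZ cell 22 these values were 1.82 and 1.08 and the list's median moved from 1.39 to 0.39, and *Slc1a2* differed by 0.60 without the 6 cells. Microglial markers summed to 0 to 95.5 and 0 to 5.48 TPM, with 9 and 6 of 10 at 0 in every cell of the group, and vascular markers to 0 to 1.23 and 0 to 18.7 TPM, with 8 and 9 of 10 at 0 and *Pecam1* differing by -0.87. Their part in the differences was not tested.

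Saline-treated cells divided by the same *Fos* limit are set beside these values. There the Fos-high cells held 36.9 ± 9.96 detected inducible genes (SD, n = 21 cells) and the Fos-low cells 18.9 ± 4.99 (SD, n = 17 cells). Of 55 inducible genes compared, 16 were past the limit and higher (29.1%), as were 51 of all 11673 genes (0.437%), and 4 genes were lower (0.0343%), 0 of them inducible. *Nr4a1* had medians of 1143 and 0 TPM in Fos-high and Fos-low saline cells, *Egr1* of 1432 and 1.07 TPM, *Fosb* of 466 and 0 TPM and *Junb* of 2601 and 6.71 TPM. The medians of *Nr4a1*, *Egr1*, *Fosb* and *Junb* in Fos-high PTZ cells, given above, were each lower than these. *Arc* was detected in 15 of 21 and 2 of 17 saline cells and differed by 5.79. *Dusp1* differed by 3.57 in saline cells, with detection in 11 of 21 and 1 of 17 cells, beside 7.26 in PTZ cells. The *Dcx* and *Igfbpl1* cells were 5 of 14 Fos-high PTZ cells and 3 of 21 Fos-high saline cells, and the *Gfap* cell was a PTZ cell. Without these PTZ cells the PTZ difference was 7.05 for *Arc* and 7.05 for *Npas4*. The saline differences include the 3 such saline cells, so these values are of unlike sets and are not ranked. Saline values without such cells are not given. These differences between treatments were not tested.

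Of the genes past the limit and higher, 11 were so in both treatments, which is 5.98% of the 184 in PTZ cells and 21.6% of the 51 in saline cells. *Nr4a1*, *Nr4a3*, *Egr1*, *Fosb*, *Npas4*, *Dusp1*, *Dusp4*, *Dusp6*, *Ppp1r15a* and *Arl4d* were 10 of them, and the other was *Tiparp*. No gene was lower in both (0 genes), but only 4 of 11673 genes were lower in saline cells, so few could be shared. All 20 of the 20 lower in PTZ cells had a difference below 0 in saline cells, *Cck* at -3.27 and *Rasgrf1* at -1.51. Of the 184 higher in PTZ cells, 180 were compared in saline cells and 155 were above 0 there. Over all genes compared in saline cells 58.4% were above 0. The genes that led outside the lists in PTZ cells were smaller in saline cells, at 1.84 for *6330403K07Rik*, 0.81 for *Dynlt1b* and -0.33 for *Eef1e1*. Across 10721 genes compared in both, the differences correlated at a Pearson's r of 0.355, and across 53 inducible genes at 0.828, with all genes of a treatment read in the same cells.

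**Figure D5:**
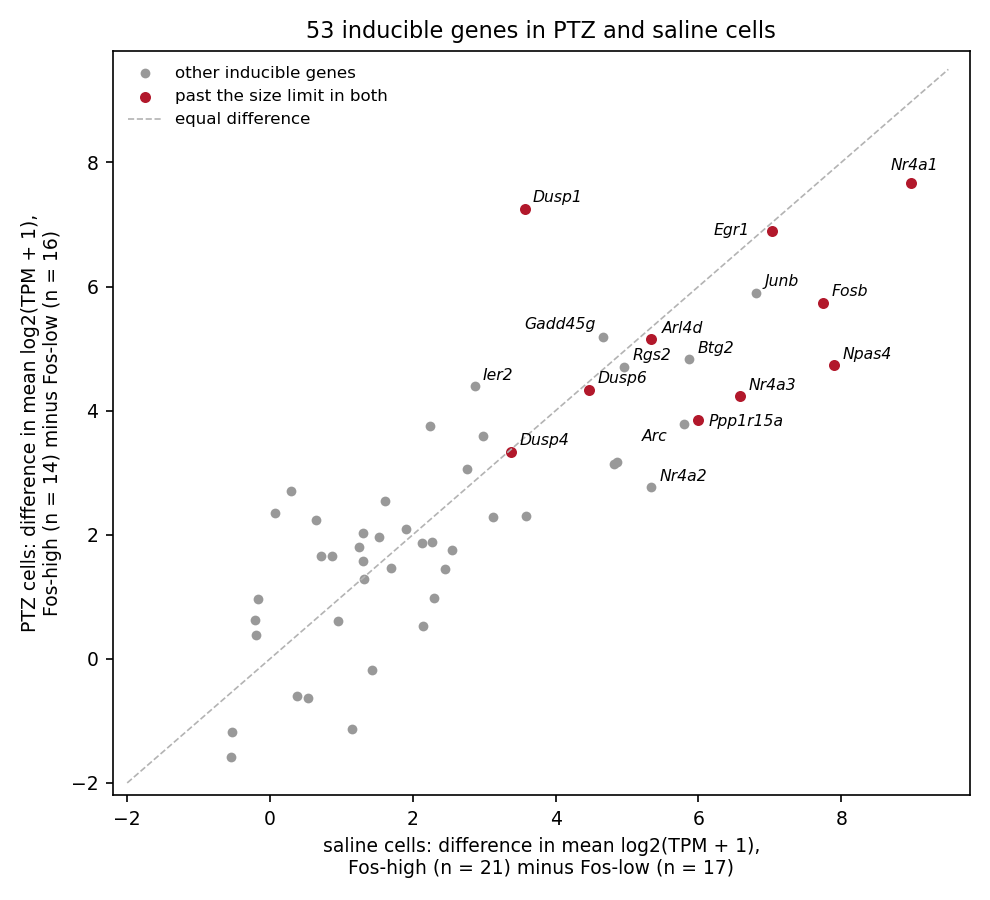
Difference in mean log2(TPM + 1), Fos-high minus Fos-low, of 53 inducible genes in saline cells (horizontal axis) and PTZ cells (vertical axis); red points are the 10 genes past the size limit in both treatments, and the dashed line marks equal differences. *Egr1* lies on the line (7.03 and 6.90), *Dusp1* lies above it (3.57 and 7.26), and *Npas4* (7.90 and 4.73) and *Arc* (5.79 and 3.79) lie below it. All Fos-high cells of each treatment are included. Without the *Dcx* and *Igfbpl1* cells and the *Gfap* cell the PTZ differences of *Npas4* and *Arc* were 7.05 and 7.05.

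Cells that met the limits on *Dcx* and *Igfbpl1* were also present after saline. Saline cells 5, 9 and 20 met them, and each was Fos-high, at 506.6, 190.3 and 3402 TPM of *Fos*. *Egr2* was at 0 in these 3 cells, *Arc* at 0 to 0.53 TPM and *Npas4* at 0 to 3.72 TPM, while *Nr4a1* was at 218, 1413 and 656 TPM. *Egr1* was at 750.2 and 1778 TPM in saline cells 5 and 20 and at 4.03 TPM in saline cell 9. *Dusp1* was at 0 in the 3 saline cells, whereas 4 of the 5 such PTZ cells detected it, with a median of 153 TPM over the 5. No saline cell was gene-rich or carried over 100 TPM of *Gfap* (0 of 38).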

How the data were processed

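Whole cells were assigned to treatment by their labels and to Fos-high or Fos-low by the authors' *Fos* TPM. Reads were aligned by the authors with RSEM and Bowtie 1.0.0 to mm10, the GRCm38 genome, per the labels and the study's methods. The deposited expected counts are RSEM's unnormalized estimates of reads per gene, and the deposited TPM values scale the authors' estimates by gene length and to the same total in every cell, for 42790 gene symbols. The tables hold fewer PTZ cells than the paper describes.

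From these, log2(TPM + 1) was averaged per group, TPM above 1 counted as detection, and counts were summed per group with exact Poisson intervals, shares with exact Clopper-Pearson intervals (95%). Cells are not replicates, so no p-value was computed. The intervals cover counting error only, since no molecular identifiers mark PCR copies. The scripts were tested on simulated data. edgeR 4.0.16 supplied the TMM factors of an alternative only. Python 3.11.15, pandas 2.3.3, NumPy 2.4.6, SciPy 1.17.1 and R 4.3.3 were used. Gene positions are those of GENCODE vM21 and promoter windows are from RefSeq, both on GRCm38.

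The members, the 17 gene lists and the limits were chosen with earlier results of these data known. Named genes were all measured AP-1, EGR and NR4A genes, *Arc*, *Prox1*, *Rbfox3*, the 4 members of each other inducible list and the 2 of each remaining list with the largest difference, and the 6 genes with the largest difference in each direction past the limit. *Dusp4*, *Dcx*, *Igfbpl1*, *Sox11*, *Calb2*, *Gfap*, *Slc1a3*, *Snap25*, *Syp*, *Tiparp*, *Gad1*, *Bdnf*, *Scg2*, *Syt4*, *Lingo1*, *Bhlhe40*, receptor subunit genes and the markers at 0 were named after their values were seen. Alternatives were other pseudocounts, filters, scalings, thinning, *Fos* and size limits, and sets of cells left out.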

Additional observations from a re-analysis of the deposited data

How the results depend on the processing

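No paired analysis was possible because cells are numbered only in accession order and the results come from no test. The difference of 19.9 in inducible genes detected kept its direction under the alternatives run and moved by less than the SD over cells. It ranged from 18.1 to 21.8 when 1 cell was left out at a time, and from 11.8 to 29.7 under the other alternatives. Counts past the size limit depended on the settings. The 184 genes higher in Fos-high PTZ cells became 564 with a pseudocount of 0.1, 14 with one of 10, 75 and 96 at *Fos* limits of 10 and 1000 TPM, and 844 at a size limit of 2 and 30 percentage points. They became 315 without the *Dcx* and *Igfbpl1* cells and 397 without these and the *Gfap* cell, and 160 to 243 with 1 cell left out. The 20 lower genes became 41 and 1 with the pseudocounts of 0.1 and 10, 58 after thinning, 35 in cells of 500000 counts or more, 6 at the *Fos* limit of 1000 TPM and 128 at the wider size limit. They became 208 without the gene-rich cells, 0 without the *Dcx* and *Igfbpl1* cells, 0 without these and the *Gfap* cell, and 174 without both the gene-rich and the *Dcx* and *Igfbpl1* cells. With 1 cell left out there were 7 to 35, namely 34 to 35 without PTZ cell 11, 15, 16 or 28 and 7 to 12 without PTZ cell 13, 22, 25, 27, 31 or 35. Of 3097 values of single genes and lists, 3085 moved by less than the SD over cells and 12 moved further. That limit is wide and the tally is no measure of stability. The change of *Calb1* from -2.92 to 0.35 and that of the neuron list from -1.52 to 0.38 fell within it. *Fosl2*, *Egr3*, *Rbfox3*, *Calb1* and *Tubb3* (-1.12 without both sets) and the medians of the granule, immature (-0.02 without both sets), neuron and interneuron lists changed sign in some settings. Depth limits what a level of 0 means, since a gene at 0 may lie under the detection of a shallow library, and 1 library per cell gives no technical error.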

Other observations

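The 5 PTZ cells with a total count of 50000 or less (PTZ cells 2, 7, 9, 14 and 18) entered no comparison. Their totals were 499, 349, 443, 891 and 1287 counts over 435, 312, 344, 735 and 894 detected genes, and the inducible genes took 1.00%, 1.43%, 1.13%, 0.898% and 1.32% of those counts. In the 9 saline cells under the same limit that share was 0.0752% to 2.12%.

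Several inducible genes outside the named ones were detected in Fos-high PTZ cells and in 0 of 16 Fos-low cells, and were chosen after their values were seen. Such genes passed the filter of at least 5 detecting cells only through the Fos-high cells. The share of all genes with this pattern was not counted, so their shares are a description only. *Sik1*, which encodes a salt-inducible kinase that restrains CREB coactivators, was detected in 9 of 14 Fos-high cells and differed by 2.35. In the gene-rich cells, which detected the most genes, it was at only 3.58 to 10.88 TPM. *Atf3*, a factor of the injury response, was detected in 6 of 14 and differed by 2.47, and *Myc* in 5 of 14, with a difference of 2.55. *Plk2*, which encodes a kinase of synaptic homeostasis, was detected in both groups, 13 of 14 and 12 of 16 cells, and differed by 3.14. *Plk5*, a polo-like kinase gene of the granule list, differed by 2.72, or by 5.68 without the *Dcx* and *Igfbpl1* cells and the *Gfap* cell.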
